A study of Homo sapiens with 6 samples.

Results

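Integrins are the receptors by which cells hold on to the extracellular matrix. Each is a pair of an alpha and a beta subunit: the pair decides which matrix protein is bound, and the beta tail links to actin or, for ITGB4, to keratin filaments through adaptor proteins. In ovarian cancer, integrins are known for the attachment of floating tumour cells to the peritoneum. The genes described here are 10 subunits found on epithelial and carcinoma cells. ITGA3, ITGA6 and ITGB4 are laminin receptor subunits, ITGA2 is a collagen receptor subunit and ITGA5 a fibronectin receptor subunit. ITGB1 is the common partner of ITGA2, ITGA3, ITGA5 and ITGA6, and ITGAV is included with its partners ITGB3, ITGB5 and ITGB8. The genes are 10 of the 19775 named on the array, chosen by gene symbol. All 35 probe sets that name them were taken, of 54613 probe sets on the array that are no controls. No probe set named any of them together with another gene.

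The cells were SKOV3, a line long grown in culture from a human ovarian carcinoma. For 24 h, 3 samples carried precursor molecules of miR21, given at 5 nM, and 3 carried a negative control precursor miRNA. The dose of the control precursor is not clear from the labels. RNA of each sample was read on its own array. The microRNA miR-21 represses messenger RNAs that carry matches to its seed, and its precursor raises its level in the cell. All 6 samples were thus transfected, and they come from 1 cell line. The labels do not say whether replicates were separate cultures, so the spread that p-values rest on may be technical. Of 10 fixed markers of ovarian carcinoma epithelium, 8 had a mean signal above the filter described next, and WT1 and MUC16 did not. Of the markers of other cells, 2 of 6 for fibroblasts (COL1A1, COL1A2), 1 of 5 for leukocytes (ITGB2), 1 of 3 for endothelium (PECAM1) and 1 of 2 for platelets (ITGA2B) lay above it, and PTPRC, CD3E, CD14, ITGAM, CDH5, VWF, PF4, COL3A1, DCN, LUM and PDGFRB lay below. The ranges of their summed signals on miR21 and control arrays overlapped: 329 to 1237 and 394 to 1068 for fibroblasts, 182 to 427 and 248 to 593 for leukocytes, 63.3 to 500.3 and 73.9 to 652 for endothelium, and 150.3 to 288 and 97.0 to 338 for platelets. The arrays of replicate 1 stood apart from the other 4 on the leading principal component, which held 65.5% of the variance, and their median signals were 117 (miR21) and 125 (control), against 55.2 and 56.6 on the other miR21 arrays and 57.9 and 61.9 on the other control arrays. Each difference is therefore also given within replicate numbers 1, 2 and 3, which pair an miR21 array with a control array.

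The mature miRNA is shown because its seed, bases 2 to 8 in capitals, is what pairs with a target, and beside it the other mature human miRNA that carries the same seed among 2370 in the RefSeq set (GRCh38.p14). The sequence of hsa-miR-21-5p lies at chr17:59841273-59841294, plus strand, inside the span of the protein-coding gene VMP1.
hsa-miR-21-5p: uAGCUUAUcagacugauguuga
hsa-miR-590-5p: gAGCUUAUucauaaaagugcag
A perfect seed match in a transcript reads AUAAGCU. Transcript sequences were not used here, so which integrin transcripts hold it was not analysed.

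A value is the linear array signal of a probe set, and a difference is the miR21 minus control difference of mean log2 signals. A probe set was tested if its mean log2 signal over the 6 arrays was at or above the median of all probe sets, 6.03 (a signal of 65.5). The filter kept 21 of the 35 integrin probe sets and 27307 of 54613 in all, with at least 1 probe set of every gene. By gene, 2 of 2 were kept for ITGA2, 1 of 1 for ITGA3, ITGA5 and ITGAV, 2 of 2 for ITGA6, 3 of 7 for ITGB1 and ITGB3, 2 of 5 for ITGB4 and ITGB8, and 4 of 4 for ITGB5. Limma was fitted over the 27307 probe sets, with Benjamini-Hochberg adjustment at 0.05. Levels of different probe sets are not comparable, so the genes are not ranked by level. In bulk RNA, a smaller share of expressing cells and less RNA per cell cannot be told apart.

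Across the integrins, the laminin receptor genes ITGA6 and ITGB4 and the ITGAV partner ITGB3 had the highest differences at the probe set of highest mean signal (1.48, 0.88 and 1.09), and ITGB1 (-0.42), ITGAV (-0.40) and ITGA2 (-0.31) the lowest. No integrin probe set passed limma: 0 of 21 were called at an adjusted p under 0.05, against 0% of all tested probe sets. An unadjusted p under 0.05 was found for 2 of the 21, an ITGB3 and an ITGB8 probe set, against 1.95% of all. The ITGB8 probe set, 242982_x_at, passed the filter through its control arrays alone, so its low p was favoured by the filter. The median difference over the 10 genes was 0.18, with 6 positive and 4 negative, against -0.01 over all 12206 tested genes. When replicate numbers entered limma as a block, 0 of the 21 integrin probe sets and 5 of the 27307 (0.0183%) were called. In that fit 9 of the 21 had an unadjusted p under 0.05, against 17.7% of all tested probe sets; 4 were positive and 5 negative, against 8.15% and 9.58%. The same count by gene was 3 positive and 2 negative of the 10, against 10.1% and 10.6% of all tested genes. The 9 probe sets come from 6 genes: ITGA6 (2 probe sets), ITGB3, ITGB4, ITGAV, ITGB1 (3) and ITGB8 (again 242982_x_at, favoured by the filter). As the 10 genes were chosen with earlier results of these data known, such counts are no independent test.

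**Figure D1:**
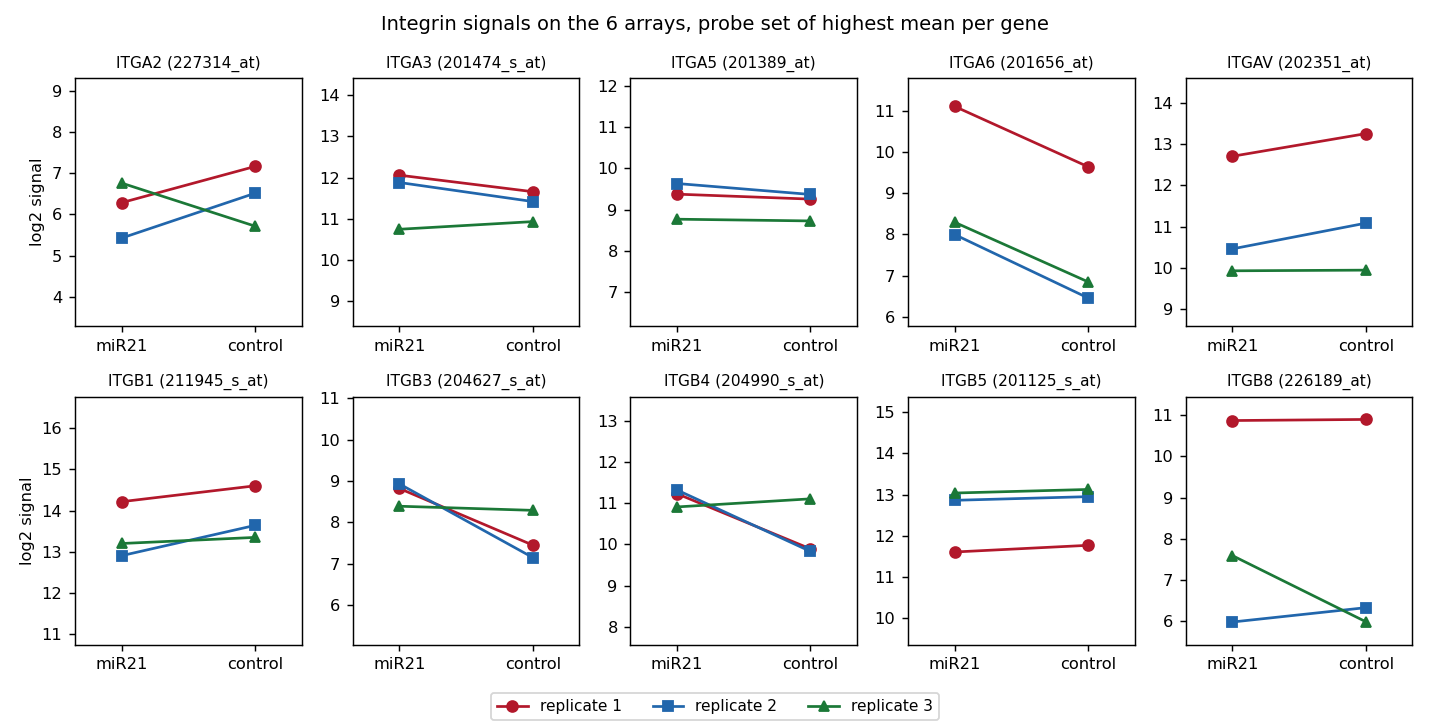
Log2 signal of each integrin gene at its probe set of highest mean, on the miR21 array (left) and the control array (right) of replicate numbers 1, 2 and 3, each joined by a line. Every panel spans 6 log2 units. The lines of ITGA6 run parallel while their levels lie far apart, those of ITGB3 and ITGB4 are steep for numbers 1 and 2 only, and those of ITGB5 are nearly level.

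ITGA6 (chr2:172427336-172506459, GRCh38.p14) encodes the alpha subunit that pairs with ITGB4 in hemidesmosomes, the junctions that tie epithelium to laminin, and with ITGB1 elsewhere. The signal of its probe set 201656_at was 2198, 255 and 314 on miR21 arrays 1, 2 and 3, against 798, 88.1 and 115 on control arrays 1, 2 and 3. Within each number the miR21 array was the higher by nearly the same factor, with differences of 1.46, 1.54 and 1.44, while the groups overlapped because number 1 was far above the others in both. The mean difference was 1.48, a 2.79-fold higher signal, and it did not pass limma (SE 1.06, 95% interval -0.99 to 3.95, adjusted p = 1; exact two-sided permutation p = 0.4, where 0.1 is the smallest possible). Blocked by replicate number in limma, the SE was 0.20, the interval 1.01 to 1.95, the unadjusted p 8.53e-05 and the adjusted p 0.0842, still above the threshold.

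The second ITGA6 probe set, 215177_s_at, gave 612, 252 and 503 on miR21 arrays 1, 2 and 3, against 224, 92.8 and 280 on control arrays 1, 2 and 3. Unlike at 201656_at, number 1 was not far above number 3 with miR21 and lay below it with control. The differences at 215177_s_at were 1.45, 1.44 and 0.85, with a mean of 1.25 (SE 0.54). This 2.37-fold higher signal did not pass either (adjusted p = 1 without the block and 0.109 with it in limma). The probe sets 201656_at and 215177_s_at had absolute mean differences larger than those of 99.1% and 98.1% of all tested probe sets. Probe set 201656_at was past 1 log2 unit in all 3 numbers, as were 0.146% of tested probe sets on the higher side, and 215177_s_at was not. The SD of the 3 differences of 201656_at was 0.05, against a median of 0.35 over all tested probe sets, and 1.62% of them had a smaller one. Single arrays decided the size of the unpaired value: it was 0.49 without miR21 replicate 1, 0.88 without control replicate 2 and 2.47 without control replicate 1.

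ITGB4 (chr17:75721459-75757818) encodes the beta partner of ITGA6 in hemidesmosomes, and has been reported as a miR-21 target in colorectal cancer cells. Probe set 204990_s_at read 2393, 2548 and 1919 on miR21 arrays 1, 2 and 3, against 949, 909 and 2198 on control arrays 1, 2 and 3. The control array of number 3 lay with the miR21 arrays, so the groups overlapped and the differences were 1.33, 1.49 and -0.20. The mean difference of 0.88 (SE 0.40, 95% interval -0.07 to 1.82) did not pass limma (adjusted p = 1, and 0.214 with the block; exact permutation p = 0.2). The other tested ITGB4 probe set, 204989_s_at, had the same signs, 1.16, 0.47 and -0.47, with a mean of 0.39 (SE 0.51). For ITGB4 the differences in numbers 1 and 2 were thus positive at both tested probe sets and negative in number 3 at both. The 3 ITGB4 probe sets below the filter had mean differences of -0.43, 0.099 and -1.32, each with both signs among the numbers.

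ITGA3 (chr17:50056110-50090481), the other laminin receptor alpha subunit, is read by the single probe set 201474_s_at. It gave 4270, 3775 and 1722 on miR21 arrays 1, 2 and 3, against 3236, 2742 and 1958 on control arrays 1, 2 and 3. Its differences of 0.40, 0.46 and -0.19 had the same signs as those of ITGB4 and averaged 0.23 (SE 0.42, 95% interval -0.74 to 1.19, adjusted p = 1 in limma).

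ITGA2 (chr5:52989352-53094779) encodes the collagen-binding alpha subunit and lay just above the filter. Probe set 227314_at read 78.1, 43.1 and 108 on miR21 arrays 1, 2 and 3, against 143, 91.5 and 52.6 on control arrays 1, 2 and 3, and its differences of -0.88, -1.09 and 1.04 went opposite ways. The second ITGA2 probe set, 205032_at, had differences of 0.13, -0.91 and 0.39, so that the 2 probe sets had opposite signs in number 1. Neither passed (means -0.31 and -0.13, adjusted p = 1 for both in limma), and the spread between numbers exceeded both means.

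ITGA5 (chr12:54395261-54419266) encodes the alpha subunit of the classical fibronectin receptor. Its probe set gave 664, 794 and 436 on miR21 arrays 1, 2 and 3, against 611, 661 and 424 on control arrays 1, 2 and 3. The miR21 array was the higher in each number, by 0.12, 0.26 and 0.04, and the mean of 0.14 lay in an interval from -0.70 to 0.99, or from -0.26 to 0.55 with the block in limma.

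ITGB1 (chr10:32900318-32958230), the partner of ITGA2, ITGA3, ITGA5, ITGA6 and ITGAV, is read by 7 probe sets, 3 of them tested. The brightest, 211945_s_at, had a signal of 19017, 7680 and 9418 on miR21 arrays 1, 2 and 3, against 24824, 12770 and 10434 on control arrays 1, 2 and 3. In every number the miR21 array was the lower at all 3 tested probe sets: the differences were -0.38, -0.73 and -0.15 for 211945_s_at, -0.42, -0.58 and -0.10 for 1553678_a_at, and -0.51, -0.52 and -0.08 for 1553530_a_at. The 3 means were -0.42, -0.37 and -0.37, control signals 1.34, 1.29 and 1.29 times those with miR21. These are small differences, and limma called none of them (adjusted p = 1 for each, and 0.239, 0.260 and 0.262 with the block). The 4 ITGB1 probe sets below the filter did not share 1 direction, with mean differences of -0.41, 0.70, 0.28 and -1.32.

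ITGAV (chr2:186590056-186680901) encodes the alpha subunit that, with several beta partners, binds RGD motifs in vitronectin, fibronectin and latent TGF-beta. It is read by 1 probe set, with 6665, 1407 and 973 on miR21 arrays 1, 2 and 3, against 9748, 2167 and 984 on control arrays 1, 2 and 3. The differences were -0.55, -0.62 and -0.02, lower with miR21 in numbers 1 and 2 and nearly equal in number 3. Their mean of -0.40 did not pass (SE 0.97, adjusted p = 1; SE 0.17, adjusted p = 0.272 with the block in limma).

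ITGB3 (chr17:47253827-47313743), the ITGAV partner also found on platelets and known from invasive tumour cells, has 7 probe sets, 3 of them tested. At 204627_s_at the signal was 452, 487 and 335 on miR21 arrays 1, 2 and 3, against 174, 142 and 313 on control arrays 1, 2 and 3. All 3 miR21 arrays were above all 3 control arrays, as for 2.82% of tested probe sets on the higher side, but in number 3 the gap was slight: the differences were 1.37, 1.78 and 0.10. Limma gave a mean of 1.09 (SE 0.41, 95% interval 0.13 to 2.04, unadjusted p = 0.0305, adjusted p = 1), a 2.12-fold higher signal. The second tested probe set, 204628_s_at, had differences of 1.70, 0.71 and -0.32 (mean 0.70), and the third, 216261_at, -0.11, 0.88 and -0.96 (mean -0.07), so the probe sets of ITGB3 did not give 1 direction. Of the 4 below the filter, all had positive means, between 0.56 and 1.18, on signals of 3.21 to 133. Only 215240_at was positive in all 3 numbers, and 204625_s_at, 204626_s_at and 211579_at each had both signs.

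ITGB5 (chr3:124761948-124901418), the beta subunit of the vitronectin receptor on many epithelial cells, had small differences throughout. Its brightest probe set, 201125_s_at, read 3120, 7433 and 8399 on miR21 arrays 1, 2 and 3, against 3490, 7903 and 8919 on control arrays 1, 2 and 3. The differences were -0.16, -0.09 and -0.09, far smaller than the gap between number 1 and the other numbers in either group. All 4 ITGB5 probe sets passed the filter, their mean differences were -0.11, 0.06, 0.02 and -0.05, and the 95% interval of the brightest was -1.29 to 1.07, or -0.42 to 0.20 with the block. The means of 0.02 and -0.05 are those of 214020_x_at and 214021_x_at, whose suffix marks probes that can bind other transcripts too. At 214020_x_at number 1 was the highest (1162, 246 and 267 on miR21 arrays 1, 2 and 3), unlike at the brightest.

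ITGB8 (chr7:20329766-20415754), whose pairing with ITGAV activates latent TGF-beta, had probe sets that went opposite ways. The brightest, 226189_at, gave 1871, 63.4 and 194 on miR21 arrays 1, 2 and 3, against 1906, 80.7 and 63.8 on control arrays 1, 2 and 3. Its differences were -0.03, -0.35 and 1.60, near 0 in number 1 and far above it in number 3, with a mean of 0.41 (SE 1.58, adjusted p = 1 in limma). Probe set 242982_x_at read 62.9, 31.1 and 37.3 on miR21 arrays, against 123, 136 and 131 on control arrays. There all 3 miR21 arrays lay below all 3 control arrays, as for 3.47% of tested probe sets on the lower side, and the differences were -0.97, -2.13 and -1.81. The mean of -1.64 (SE 0.52, unadjusted p = 0.0143) did not pass (adjusted p = 1, and 0.136 with the block). This probe set passed the filter through its control arrays alone (mean log2 signal 5.39 with miR21 and 7.02 with control), so a difference was favoured by the filter, and by the array maker's naming its suffix marks probes that can bind other transcripts too. The 3 ITGB8 probe sets below the filter had mean differences of -0.87, -0.43 and -1.31, each with both signs among the 3 numbers.

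**Figure D2:**
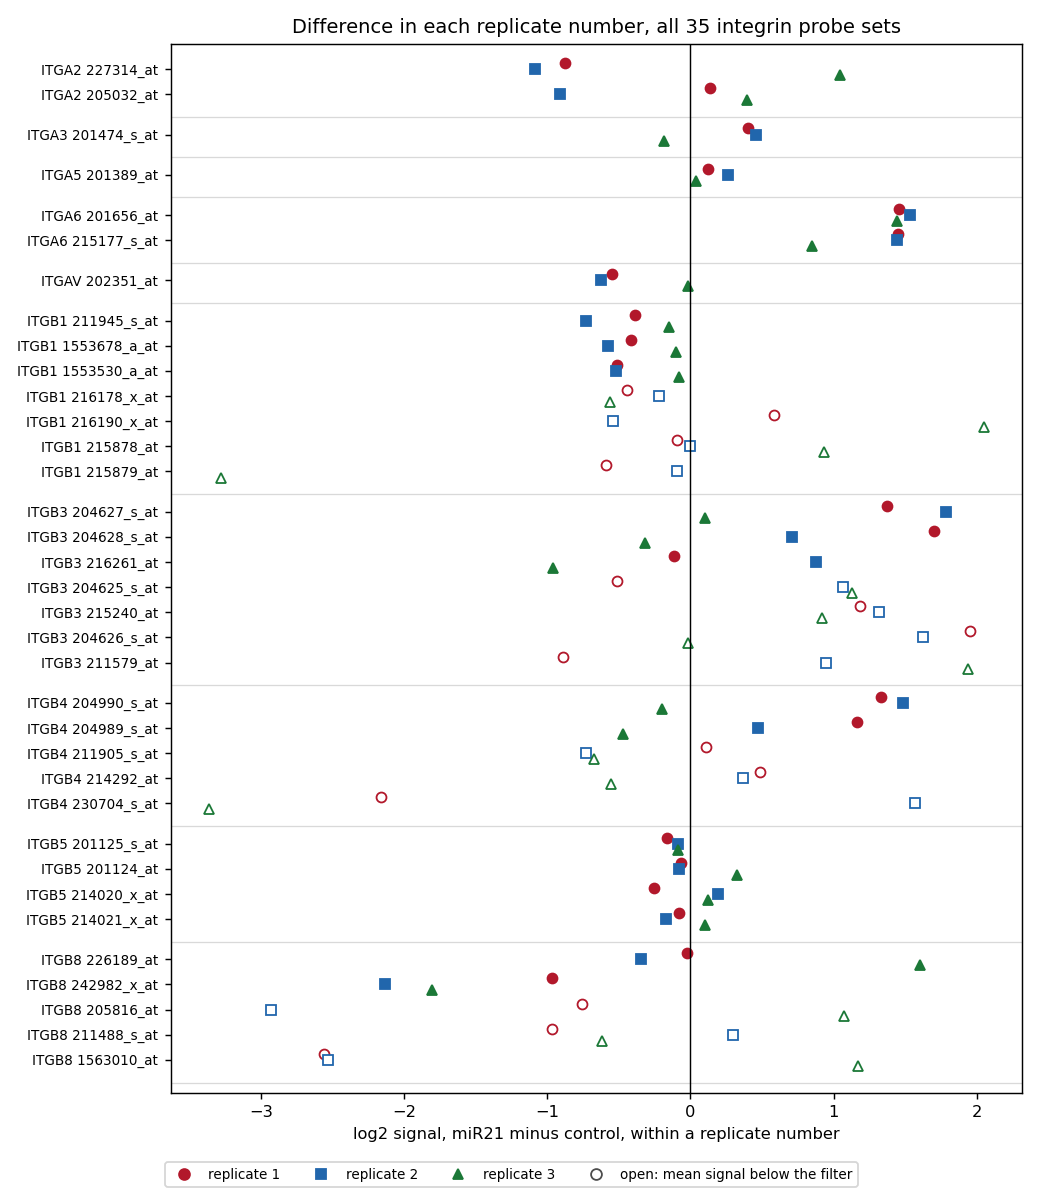
Log2 difference, miR21 minus control, within replicate number 1 (circles), 2 (squares) and 3 (triangles) for all 35 integrin probe sets, ordered by mean signal within a gene. Filled points passed the filter of log2 6.03 and open points did not. ITGA6 lies right of 0 and the 3 tested ITGB1 probe sets left of it in every number, ITGB5 stays near 0, and the tested probe sets of ITGB3, ITGB4 and ITGB8 spread over both sides.

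Of the 21 tested integrin probe sets, 10 had 1 sign in all 3 numbers, against 39.2% of all tested probe sets; 4 were positive and 6 negative, against 18% and 21.3%. The groups did not overlap at 2 of the 21, 1 higher and 1 lower, against 6.29% in either direction. The lower one, 242982_x_at of ITGB8, is also among the 6 negative, and it passed the filter through its control arrays alone. At the probe set of highest mean signal, 3 of the 10 genes were positive in all 3 numbers (ITGA5, ITGA6 and ITGB3), against 20.3% of all tested genes, and 3 were negative in all 3 (ITGAV, ITGB1 and ITGB5), against 20.9%. ITGA3 and ITGB4 were positive in numbers 1 and 2 and negative in number 3. ITGA2 and ITGB8 had the opposite pattern, negative in numbers 1 and 2 and positive in number 3. Number 3 had the difference nearest to 0, in size, at ITGA3, ITGA5, ITGA6, ITGAV, ITGB1, ITGB3, ITGB4 and ITGB5, and over all tested probe sets it held fewer past 1 log2 unit (656 higher and 603 lower) than number 1 (1261 and 1820) or number 2 (1308 and 2385). The 14 integrin probe sets below the filter had 7 positive and 7 negative means from -1.32 to 1.18, and single differences from -3.36 to 2.05.

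**Figure D3:**
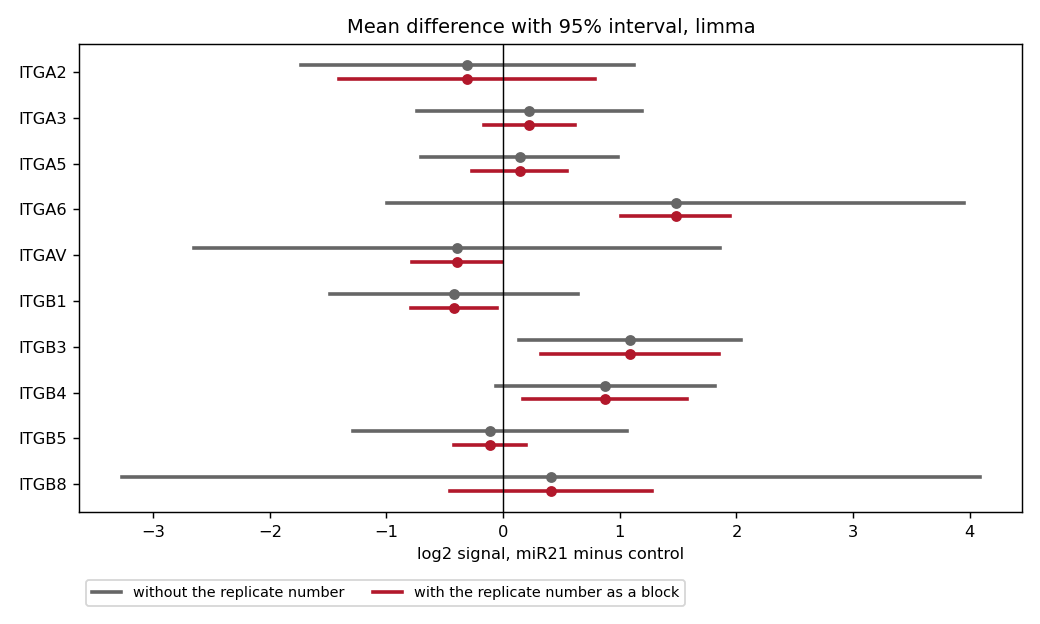
Mean log2 difference, miR21 minus control, of the 10 integrin genes at the probe set of highest mean signal, with the 95% interval from limma without the replicate number (grey, upper) and with it as a block (red, lower). The block narrows every interval, to 1.01 to 1.95 for ITGA6, and no gene passed the adjusted threshold in either fit.

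Promoters of ITGA6 and ITGB1 are shown since they are the genes with several tested probe sets that all had 1 sign in every number, positive for ITGA6 and negative for ITGB1. The windows hold 250 bases before and 50 from the annotated start of the RefSeq gene (GRCh38.p14), chr2:172427086-172427385 on the plus strand for ITGA6 and chr10:32958181-32958480 on the minus strand for ITGB1, and capitals mark GGGCGG on either strand, the core bound by Sp1.
ITGA6: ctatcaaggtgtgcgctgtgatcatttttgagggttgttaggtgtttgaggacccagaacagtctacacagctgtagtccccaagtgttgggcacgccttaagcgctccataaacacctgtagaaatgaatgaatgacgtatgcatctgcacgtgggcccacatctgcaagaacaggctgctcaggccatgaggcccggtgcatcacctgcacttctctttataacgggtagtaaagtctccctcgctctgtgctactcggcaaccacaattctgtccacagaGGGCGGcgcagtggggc
ITGB1: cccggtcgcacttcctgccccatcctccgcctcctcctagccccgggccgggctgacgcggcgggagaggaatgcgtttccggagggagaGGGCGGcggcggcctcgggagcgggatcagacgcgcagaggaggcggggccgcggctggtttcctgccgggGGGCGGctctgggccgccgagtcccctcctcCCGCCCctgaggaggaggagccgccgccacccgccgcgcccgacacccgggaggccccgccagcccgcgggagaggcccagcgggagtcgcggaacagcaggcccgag
The ITGA6 window had 1 GGGCGG, 1 TATAAA and a GC content of 53.0%, and the ITGB1 window 3 GGGCGG, 0 TATAAA and 78.3%, against a median GC content of 58.7% over 35116 promoter windows. Windows at another listed start of each gene went the other way. For ITGA6, at chr2:172427586, it had 3 GGGCGG, 0 TATAAA and 72.0%. For ITGB1, at chr10:32935558, it had 0 GGGCGG, 3 TATAAA and 40.7%, so the contrast depends on the window shown. GGGCGG occurred in 9 of the 12 windows listed for 7 of the 10 genes (45.0% of all windows), TATAAA in 2 (11.5%) and TGANTCA, the AP-1 motif, in 1, that of ITGA5 (7.71%), all searched on both strands without overlap between the motifs being removed. A match is a description of the letters only.

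Of 16 other integrin subunit genes, 8 had a tested probe set, and limma called 0 of them (0% of all tested genes, 0 of the 8 with an unadjusted p under 0.05). Their median difference was 0.38, with 5 positive and 3 negative. The groups did not overlap at 3 on the higher side (ITGA2B, ITGA4 and ITGA7) and 2 on the lower (ITGA1 and ITGB2). Of all 12206 tested genes, 413 and 399 did not overlap. ITGA1, another collagen-binding subunit that pairs with ITGB1, had signals of 65.7, 76.4 and 127 on miR21 arrays 1, 2 and 3, against 185, 141 and 197 on control arrays 1, 2 and 3. The groups did not overlap, and the mean difference was -1.003 (SE 0.45). ITGA4, which binds fibronectin and VCAM1, lay the other way, with 160, 208 and 128 on miR21 arrays 1, 2 and 3, against 102, 78.2 and 93.9 on control arrays 1, 2 and 3, a difference of 0.84 (SE 0.42). ITGB7, a lymphocyte beta subunit, differed by 1.05 (SE 0.98), with 2.16 in number 1 and -0.08 in number 3. It passed the filter through its miR21 arrays alone (mean log2 signal 6.64 with miR21 and 5.59 with control), so a difference was favoured by the filter. Without ITGB7, a count made after its values were seen, the median of the other 7 was 0.29, with 4 positive and 3 negative. ITGA2B differed by 0.61, the muscle laminin receptor subunit ITGA7 by 0.48 (0.05 at its other tested probe set), ITGA10 by 0.29, ITGAE by -0.17 and ITGB2 by -0.32. With the block in limma, an unadjusted p under 0.05 was found for 2 of the 8. ITGA4 was the 1 higher and ITGA1 the 1 lower, against 10.1% and 10.6% of all tested genes. This list too was chosen with earlier results of these data known. None of these 8 genes is a result past the test.

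The adhesion complex couples integrin tails to actin and to kinase signalling. Of 37 listed genes, 32 were tested, limma called 0 with or without the block, and the median difference was -0.20, with 12 positive and 20 negative; 12 were negative and 6 positive in all 3 numbers, against 20.9% and 20.3% of all tested genes. TNS1, which links integrin tails to actin, passed the filter through its control arrays alone; without it, a count made after its values were seen, the median was -0.12, with 12 positive and 19 negative, 11 of them negative in all 3 numbers. Vinculin, VCL, which bolts talin to actin, read 10154, 10625 and 14742 on miR21 arrays 1, 2 and 3, against 17356, 16093 and 24955 on control arrays 1, 2 and 3. The miR21 arrays were all below the control arrays, and the mean difference of -0.71 (SE 0.29) did not pass (adjusted p = 1, and 0.113 with the block in limma). CD151, the tetraspanin bound to the laminin-binding integrins, read 3092, 3471 and 3685 on miR21 arrays 1, 2 and 3, against 4929, 4379 and 4833 on control arrays 1, 2 and 3, again without overlap, with a mean of -0.47 (SE 0.25). NEDD9, a docking protein of focal adhesion kinase, differed by -2.32, -2.97 and 0.19 in numbers 1, 2 and 3 (mean -1.70, SE 0.75). Its other tested probe set differed by -1.14, -2.04 and -0.22 (mean -1.13, SE 0.52), and there the groups did not overlap. CIB1, a calcium-binding partner of ITGA2B, differed by 0.72, 0.59 and 0.03. These 4 genes were named for having the smallest p of the list, and limma gave 1 of the 32 an unadjusted p under 0.05, against 2.42% of all tested genes. With the block in limma it was 9 of the 32, 8 lower and 1 higher, against 10.6% and 10.1% of all tested genes. At the probe set of highest mean signal, 2 did not overlap on the lower side (VCL and CD151) and 1 on the higher (CIB1). Of all 12206 tested genes, 399 and 413 did not. These counts are no independent test, because the list was chosen with earlier results of these data known.

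Of 24 listed matrix and surface ligands of integrins, 19 were tested, with a median difference of -0.15 (8 positive, 11 negative) and 0 called in limma with or without the block. LAMB1, a laminin chain, read 1574, 1747 and 1673 on miR21 arrays 1, 2 and 3, against 731, 821 and 1260 on control arrays 1, 2 and 3. Its groups did not overlap, and it differed by 0.87 (SE 0.31), or by 0.69 at its other tested probe set. LAMB1 was the 1 ligand without overlap on the higher side and L1CAM the 1 on the lower, against 413 and 399 of all 12206 tested genes. The matricellular ligand genes THBS1, CCN1 and CCN2 differed by -2.62 (SE 1.11), -1.82 (SE 0.74) and -1.95 (SE 0.62), with -0.56, -0.40 and 0.11 in number 3, and the 4 tested THBS1 probe sets ranged from -2.62 to -0.59. The other tested CCN1 probe set differed by -1.88 (SE 0.57). These 4 genes were named for having the smallest p of the list. An unadjusted p under 0.05 in limma was found for 4 of the 19 tested ligands, against 2.42% of all tested genes, and none passed adjustment. With the block in limma it was 8 of the 19, 6 lower and 2 higher, against 10.6% and 10.1% of all tested genes. The list was chosen with earlier results of these data known, so these counts are no independent test.

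**Figure D4:**
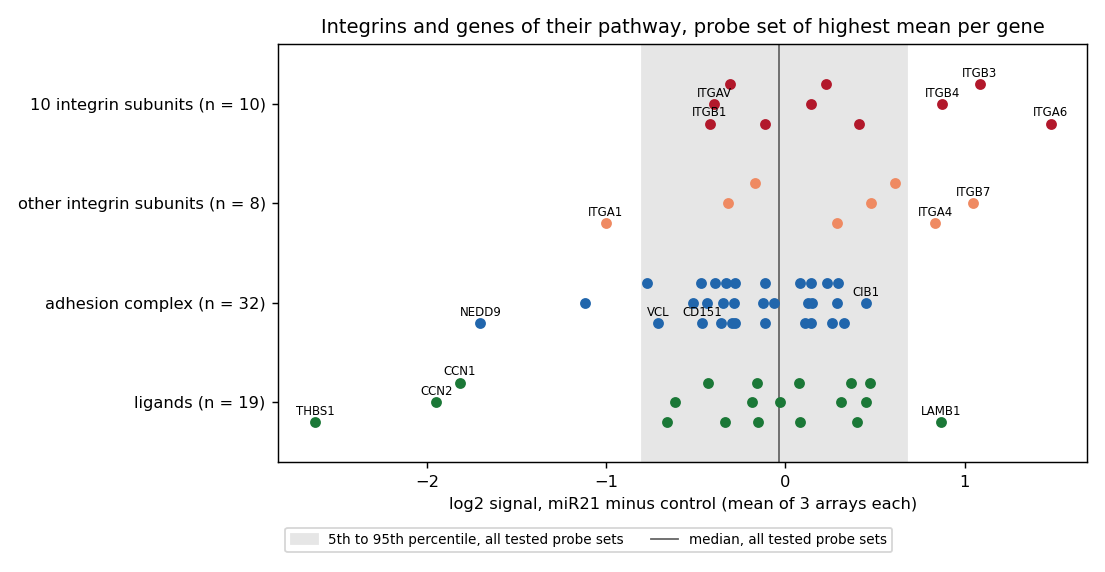
Mean log2 difference, miR21 minus control (3 arrays each), of the 10 integrin subunits and of 3 lists around them, 1 point per tested gene at its probe set of highest mean signal, with height within a row only separating points. The grey band spans the 5th to 95th percentile of all 27307 tested probe sets, -0.80 to 0.68, and the line is their median. ITGA6, ITGB3 and ITGB4 lie right of the band, and among the other integrins ITGB7, above the filter on its miR21 arrays alone, and ITGA4 lie right of it and ITGA1 left.

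The gene whose log2 signal over the 6 arrays was most like that of each integrin was found among 12205 other tested genes by Pearson's r. It was NPNT for ITGA6 (r = 0.996), LIAS for ITGB4 (0.992), FBLIM1 for ITGA3 (0.997), PDE7B for ITGA2 (0.992) and CIMIP2C for ITGA5 (0.990). For the others it was RACGAP1 for ITGB1 (0.999), PRKAA1 for ITGAV (0.999), DNAJB6 for ITGB3 (0.987), DDX50 for ITGB5 (1.00) and KCNK1 for ITGB8 (0.999). These are descriptions over 6 arrays that share the level of replicate number 1, and the best of many genes is high by selection. ITGB4 ranked second for ITGB3 (r = 0.973), named here after its value was seen.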

How the data were processed

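The authors deposited linear intensity signals per probe set, made with MAS5 per the submitters' processing notes, which as used here name no version. Every array has a 2% trimmed mean near 500, so levels are relative to the array's own average, and dim signals are noisy on the log2 scale. Of 54675 probe sets, 62 controls were left out; 41091 name 1 gene, 1801 several and 11721 none used here. Differences were computed from log2 of the deposited intensity, without a pseudocount, and tested over all probe sets at or above the median with lmFit and eBayes (variance trend) of limma 3.58.1, run under R 4.3.3, and single values with exact two-sided permutation tests. The number of arrays limits the precision.

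Titles of the samples give the replicate numbers. Deviations from the group means correlated with 0.878, 0.643 and 0.630 between arrays of the same number, so the numbers were taken to pair the arrays; the planned fit has no block. Across numbers 2 and 3 the correlations were 0.247 and 0.349, lower than within each number but also positive. The titles give the numbers and state no pairing.

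All 10 integrin genes were named, with other integrins above the filter, and 4 genes of smallest p of each of 2 lists, adhesion complex and ligands. The members and lists were chosen with earlier results of these data known. Lists use each gene's probe set of highest mean signal. Integrin tail sequences were planned and are not used here. The fits were tested on simulated data.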

Additional observations from a re-analysis of the deposited data

How the results depend on the processing

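The count of called probe sets was 0 in the fit over all arrays (533 at an unadjusted p under 0.05) and 0 under array weights, quantile normalization, 16 added to each signal, 1 probe set or an average per gene, a filter at the upper quartile or none, median centring and a fit with no variance trend (240 to 3280 at an unadjusted p under 0.05), and without each array in turn. With the replicate block limma called 5, and the block fit called 56 when number 1 was dropped, 0 when number 2 was (2145 at an unadjusted p under 0.05) and 7243 when number 3 was; these rest on 2 pairs each, and the cause of the gap was not tested. Without number 3, in that block fit, ITGA3 (0.43, adjusted p = 0.0147), ITGA6 (1.499, 2.07e-09), ITGAV (-0.59, 0.000450), ITGB1 (-0.56, 0.00188), ITGB3 (1.58, 5.59e-07) and ITGB4 (1.41, 5.52e-17) were called, among the 7243 of 27307. With 2 pairs, these p-values rest mostly on the variance limma pools over probe sets, and hardly on the spread of the gene itself. The dropped number 3 is also the one in which ITGA3 and ITGB4 had the opposite sign. With all 3 numbers, the pairing by replicate block changed no integrin call.

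Of 10 integrin differences, ITGA6, ITGB1 and ITGB3 kept their sign under every alternative that gave a value. Leaving out 1 array, in the fit without the block, gave ranges of -0.68 to 0.0582 for ITGA2, -0.0227 to 0.63 for ITGA3, -0.0528 to 0.39 for ITGA5, 0.49 to 2.47 for ITGA6, -1.23 to 0.52 for ITGAV, -0.81 to -0.0537 for ITGB1, 0.84 to 1.42 for ITGB3, 0.65 to 1.29 for ITGB4, -0.53 to 0.33 for ITGB5 and -0.95 to 1.99 for ITGB8. Such a fit ignores the pairing and leaves the other array of that number unmatched, so these ranges also hold the level of the number. ITGAV was 0.52 without control replicate 1. In the block fit without both arrays of number 1, 2 or 3, ITGAV was -0.32, -0.28 or -0.59, and only ITGA2 and ITGB8 reversed there. ITGA2 was then 0.0832 without both arrays of number 2, and ITGB8 -0.19 without both of number 3. ITGB4 reversed to -0.0779 with the mean of its probe sets, where dim ones weigh equally. The remaining reversals came from leaving out 1 array, for ITGA2, ITGA3, ITGA5, ITGAV, ITGB5 and ITGB8. Where a gene fell below a filter (ITGA2, ITGA6, ITGB3 and ITGB8 in the upper quartile, ITGB3 and ITGB8 as a mean) it gave no value. Differences on probe sets near the filter, as for ITGA2, are limited by signal over background.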
